A study of Mus musculus with 12 samples.

Results

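Klf4, Tfcp2l1, Bcl6, Myc, Cebpb and Cebpd are 6 genes for transcription factors that earlier work in mouse and human cells tied to the STAT3 pathway, and they were taken by symbol, with every array probe annotated to each. They have 10 of the 46621 probes with a unique identifier on these Illumina bead arrays, 3 for Klf4, 2 each for Myc and Cebpd and 1 each for Tfcp2l1, Bcl6 and Cebpb. Of these, 8 probes were detected above the negative controls (detection p under 0.05) on at least 3 of the 11 arrays used and were tested, as were 20965 probes in all. The Klf4 probe ILMN_1221264 and the Myc probe ILMN_1231123 fell below this filter, so each of the 6 genes had at least 1 tested probe.

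The cells came from CD1 mice. Tissue of the subventricular zone, where neural stem cells lie beside the lateral ventricles, was dissected on postnatal day 1. It was cultured with EGF at 20 ng/ml as neurospheres, free-floating clusters of stem cells and progenitors. The BMP4 group (4 arrays) carried a retrovirus with GFP under the mouse Gfap promoter, was sorted for GFP, and was then kept 7 days with recombinant human BMP4 at 20 ng/ml and EGF at 1 ng/ml. The LIF_NOG group (4 arrays) had the same virus, sort, EGF dose and time, with LIF at 20 ng/ml and the BMP antagonist noggin at 250 ng/ml. In both, cytokines were renewed on day 3 at a lower concentration. The Neurosphere group carried a control GFP retrovirus and was taken from sorted neurospheres in EGF at 20 ng/ml with neither cytokine. It has 4 arrays, of which 3 (Neurosphere 2 to 4) were used. Each comparison with Neurosphere therefore also differs in virus, EGF dose and culture time, and BMP4 against LIF_NOG is the comparison in which these were equal. Selection for GFP from the Gfap promoter limits both treated groups to cells in which that promoter was active. Whether replicate arrays of one group represent different cultures or animals is not given in the labels, and all p-values below rest on the spread among these arrays, which could be technical.

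Per array, 38.7% to 42.0% of probes were detected, and the median raw signal lay between 69 and 80.9. The raw column of Neurosphere 1 stands in another row order than the rest and was left out. For values of it given below, with its rows moved, each probe took the raw signal at the rank of its authors' processed value. In the authors' processed table the arrays stand in 2 row orders, one with Neurosphere 2 to 4 and LIF_NOG 1 to 3, the other with Neurosphere 1, LIF_NOG 4 and BMP4 1 to 4. What these orders stand for is not given in the sources used here, and values with the row order as a block are given below where they end a call of the 6 genes or change a count of called genes in a list by over 1.5 times. Counts of cell type markers were not run with this block or in any other alternative. LIF_NOG 2 stood apart from the other LIF_NOG arrays, at -52.6 against -0.299 to 16.5 on the third principal component (5.22% of the variance) and at 5.31 against 38 to 58.2 on the second (18.3%). The astrocyte label of the treated groups was checked against 14 astrocyte markers. These include Gfap, whose promoter drove the sorting reporter of both treated groups, so the check is not independent of the sort. The summed normalized signal of the 14 was 113000 to 153000 on the BMP4 arrays, 43100 to 72200 on the LIF_NOG arrays and 25800 to 27900 on the Neurosphere arrays. Bright genes weigh most in this sum. Against Neurosphere, 12 of the 14 were called higher in BMP4 and 7 in LIF_NOG, where 24.3% and 12.7% of all genes were. All 8 microglia and macrophage markers on the array (Aif1, Cx3cr1, Tyrobp, Itgam, C1qa, C1qb, C1qc and Ptprc) were undetected on every array.

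LIF and related cytokines bind receptors that share the gp130 subunit, which activates JAK kinases that phosphorylate STAT3. STAT3 then enters the nucleus and binds sites near its target genes, among them the gene of its own feedback inhibitor, Socs3. In mouse embryonic stem cells, Klf4 and Tfcp2l1 are factors through which LIF and STAT3 sustain self-renewal, and Myc has been described there as a STAT3 target. In liver and immune cells, Cebpb and Cebpd encode C/EBP factors that act beside STAT3 at genes of the acute phase response, and Bcl6 encodes a repressor whose transcription STAT3 can raise. In neural progenitors, LIF with STAT3 and BMP with SMAD proteins both turn on Gfap and astrocyte differentiation.

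STAT proteins bind DNA at palindromes of the form TTCNNNGAA, and the promoters of 3 of these genes are shown because they differ in this motif. RefSeq (build GRCm38.p6) gave 5 promoters for 4 of the genes, each from 250 bases before to 50 bases after a gene start, and Myc and Cebpd are named only. The windows shown lie at chr4:55532426-55532725 on the minus strand for Klf4, at chr1:118627695-118627994 on the plus strand for Tfcp2l1, and at chr16:23981234-23981533 and chr16:23988803-23989102, both on the minus strand, for Bcl6. They run 5′ to 3′ on the gene's strand, with each TTCNNNGAA match in capitals.
Klf4 promoter: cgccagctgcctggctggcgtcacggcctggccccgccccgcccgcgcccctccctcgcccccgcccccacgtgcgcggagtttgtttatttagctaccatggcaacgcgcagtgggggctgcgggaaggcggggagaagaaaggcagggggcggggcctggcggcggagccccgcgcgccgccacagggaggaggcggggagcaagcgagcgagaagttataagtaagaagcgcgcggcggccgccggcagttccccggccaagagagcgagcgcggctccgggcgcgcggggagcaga
Tfcp2l1 promoter: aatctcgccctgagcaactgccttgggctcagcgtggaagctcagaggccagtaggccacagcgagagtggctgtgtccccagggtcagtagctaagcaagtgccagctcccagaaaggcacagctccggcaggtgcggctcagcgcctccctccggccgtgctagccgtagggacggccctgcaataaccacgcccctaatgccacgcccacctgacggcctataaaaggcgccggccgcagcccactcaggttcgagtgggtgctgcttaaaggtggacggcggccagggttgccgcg
Bcl6 promoter 1: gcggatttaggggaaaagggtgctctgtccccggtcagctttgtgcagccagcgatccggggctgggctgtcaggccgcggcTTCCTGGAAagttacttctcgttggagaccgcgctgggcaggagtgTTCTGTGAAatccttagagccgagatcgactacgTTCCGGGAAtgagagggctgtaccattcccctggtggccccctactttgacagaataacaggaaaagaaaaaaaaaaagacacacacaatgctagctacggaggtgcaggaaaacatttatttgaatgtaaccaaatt
Bcl6 promoter 2: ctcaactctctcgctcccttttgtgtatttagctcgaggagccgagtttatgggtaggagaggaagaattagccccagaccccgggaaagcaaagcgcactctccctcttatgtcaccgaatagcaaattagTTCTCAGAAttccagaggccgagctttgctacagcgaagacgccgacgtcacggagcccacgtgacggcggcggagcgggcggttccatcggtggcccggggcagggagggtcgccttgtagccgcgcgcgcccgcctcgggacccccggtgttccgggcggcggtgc
The first Bcl6 window held 3 matches, TTCCTGGAA at -168, TTCTGTGAA at -122 and TTCCGGGAA at -88 relative to the gene start. The second held 1, TTCTCAGAA at -118. These letters were not in the Klf4, Tfcp2l1 and Cebpb windows. Of 32851 promoters of this length, 8.3% held at least 1 match, and 11 (0.0335%) held at least 3. The E-box CACGTG, the palindrome that Myc-Max dimers bind, was at -182 in the Klf4 window and at -60 in the second Bcl6 window, as in 7.15% of promoters. GGCGCC was in the Tfcp2l1 and Cebpb windows (11.9% of promoters), and the CREB motif TGACGTCA was in none of the 5 (1.79%). All motifs were searched on both strands, none of the matches overlapped another motif, and a match is a run of letters that is not shown to be bound in these cells.

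The 6 genes did not move as a group. Klf4 was highest with LIF and noggin, Tfcp2l1 and Bcl6 were highest with BMP4, Cebpb was higher with either cytokine than in neurospheres, and Myc was lowest with BMP4. The 2 Cebpd probes were called in opposite directions. In LIF_NOG against Neurosphere, 3 of the 8 tested probes were called (limma, adjusted p under 0.05), all higher, where 22.3% of all tested probes were called (10.5% higher and 11.8% lower). In BMP4 against Neurosphere, 7 of 8 were called, 5 higher and 2 lower, where 44.9% of all probes were called (21% higher and 23.9% lower). In BMP4 against LIF_NOG, 7 of 8 were called, 3 higher and 4 lower, where 36.8% were called (17.3% higher and 19.5% lower). With so many probes called, these counts by themselves say little about the 6 genes. Under median scaling in place of quantile normalization, 64.9% of the called probes were higher in LIF_NOG against Neurosphere, against 47.1% in the fit used here. The groups did not overlap for 4 of 8 probes in LIF_NOG against Neurosphere (30.5% of all probes), for 7 in BMP4 against Neurosphere (49.8%) and for 7 in BMP4 against LIF_NOG (33.0%). An exact two-sided permutation test gave p = 0.0286 for each of the 7 probes called in BMP4 against LIF_NOG, the smallest that 4 against 4 arrays allow. For every probe called against Neurosphere the exact permutation p was 0.0571, the smallest that 4 against 3 allow, so that test cannot pass 0.05 there. The comparisons with Neurosphere share its 3 arrays.

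**Figure D1:**
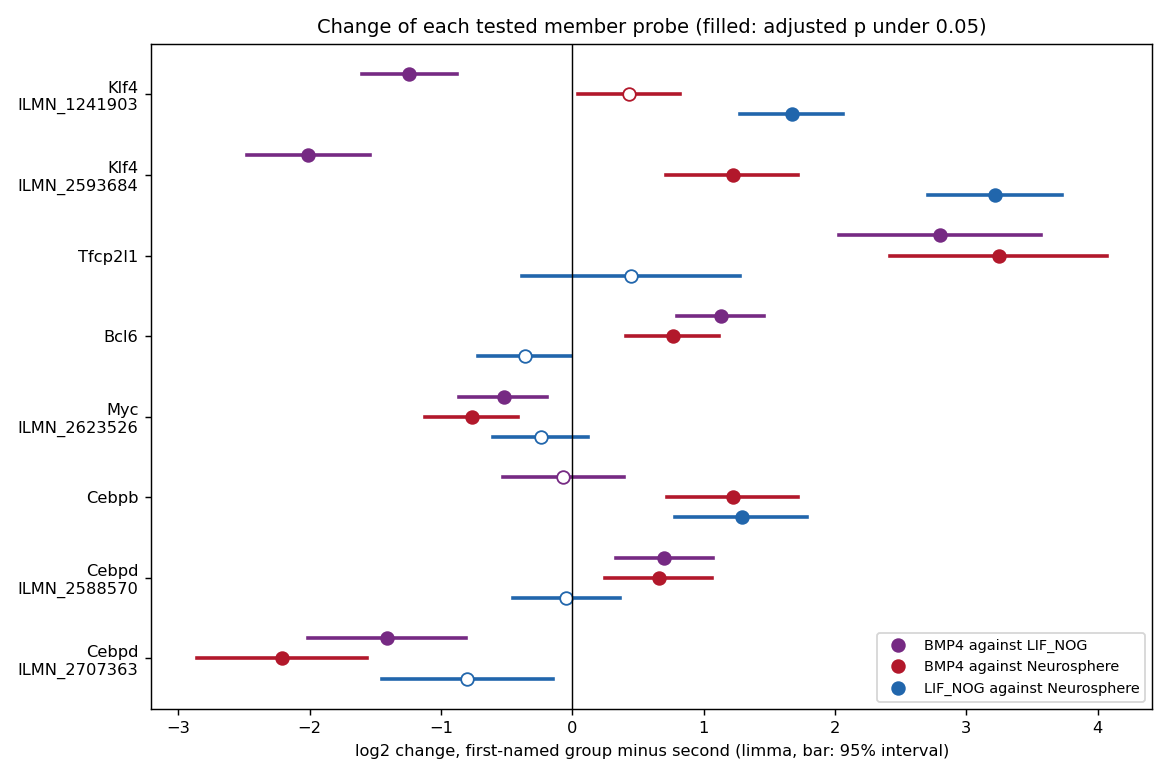
Log2 change of the 8 tested probes in each of 3 comparisons (first-named group minus the second, with the 95% interval of the limma fit; filled points have an adjusted p under 0.05). Both Klf4 probes lie right of 0 for LIF_NOG against Neurosphere and left of 0 for BMP4 against LIF_NOG, Tfcp2l1 and Bcl6 lie right of 0 for both BMP4 comparisons, and the 2 Cebpd probes lie on opposite sides for BMP4.

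Klf4 encodes a Krüppel-like zinc-finger factor, one of the factors used to reprogram somatic cells to pluripotency. Its probe ILMN_2593684, which stands for the gene in comparisons across genes, read 6.55, 6.21, 6.30 and 7.04 on BMP4 arrays 1 to 4 (log2 normalized signal here and below). It read 8.60, 8.31, 8.41 and 8.81 on LIF_NOG arrays 1 to 4, against 4.80, 5.65 and 5.48 on Neurosphere arrays 2 to 4, where it was detected on 2 of 3. The 3 groups did not overlap, and the order was LIF_NOG, then BMP4, then Neurosphere, with each neighbouring pair differing beyond its spread. It rose by 3.22 ± 0.24 in LIF_NOG against Neurosphere (limma SE, here and for all changes below), 9.33-fold, with adjusted p = 5.66e-06. It rose by 1.22 ± 0.24 in BMP4 against Neurosphere, 2.32-fold, with adjusted p = 0.000903. In BMP4 against LIF_NOG it fell by 2.01 ± 0.22, which is 4.02-fold lower in BMP4, with adjusted p = 1.54e-05. Here as for every gene below, a change in cells per type and a change in RNA per cell cannot be told apart in bulk RNA. With the row order as a block, a fit in which LIF_NOG 4 alone links both orders, the rise in BMP4 against Neurosphere was 0.85 ± 0.42 with adjusted p = 0.196.

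The second tested Klf4 probe, ILMN_1241903, was also highest in LIF_NOG. It read 4.61, 4.93, 4.95 and 5.25 on the BMP4 arrays (detected on 3 of 4). It read 6.05, 6.01, 6.11 and 6.52 on the LIF_NOG arrays, against 4.52, 4.71 and 4.28 on the Neurosphere arrays, where it was undetected on all 3. All LIF_NOG arrays were above all others, while BMP4 and Neurosphere overlapped. The probe was at least 2.42-fold higher in LIF_NOG than in Neurosphere, set against the detection limit of the Neurosphere arrays (adjusted p = 8.59e-05), and in BMP4 against LIF_NOG it fell by 1.24 ± 0.16 (adjusted p = 7.7e-05). Between BMP4 and Neurosphere it differed by 0.43 ± 0.18 with adjusted p = 0.067, which did not pass. It passed there without BMP4 1 (0.54, adjusted p = 0.028), without LIF_NOG 4 (0.43, adjusted p = 0.0493) and with Neurosphere 1 included (0.47, adjusted p = 0.0247), and with the row order as a block it was -0.03 (adjusted p = 0.963). The third probe, ILMN_1221264, was detected on 2 arrays, LIF_NOG 3 and LIF_NOG 4, at 4.90 and 5.13.

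**Figure D2:**
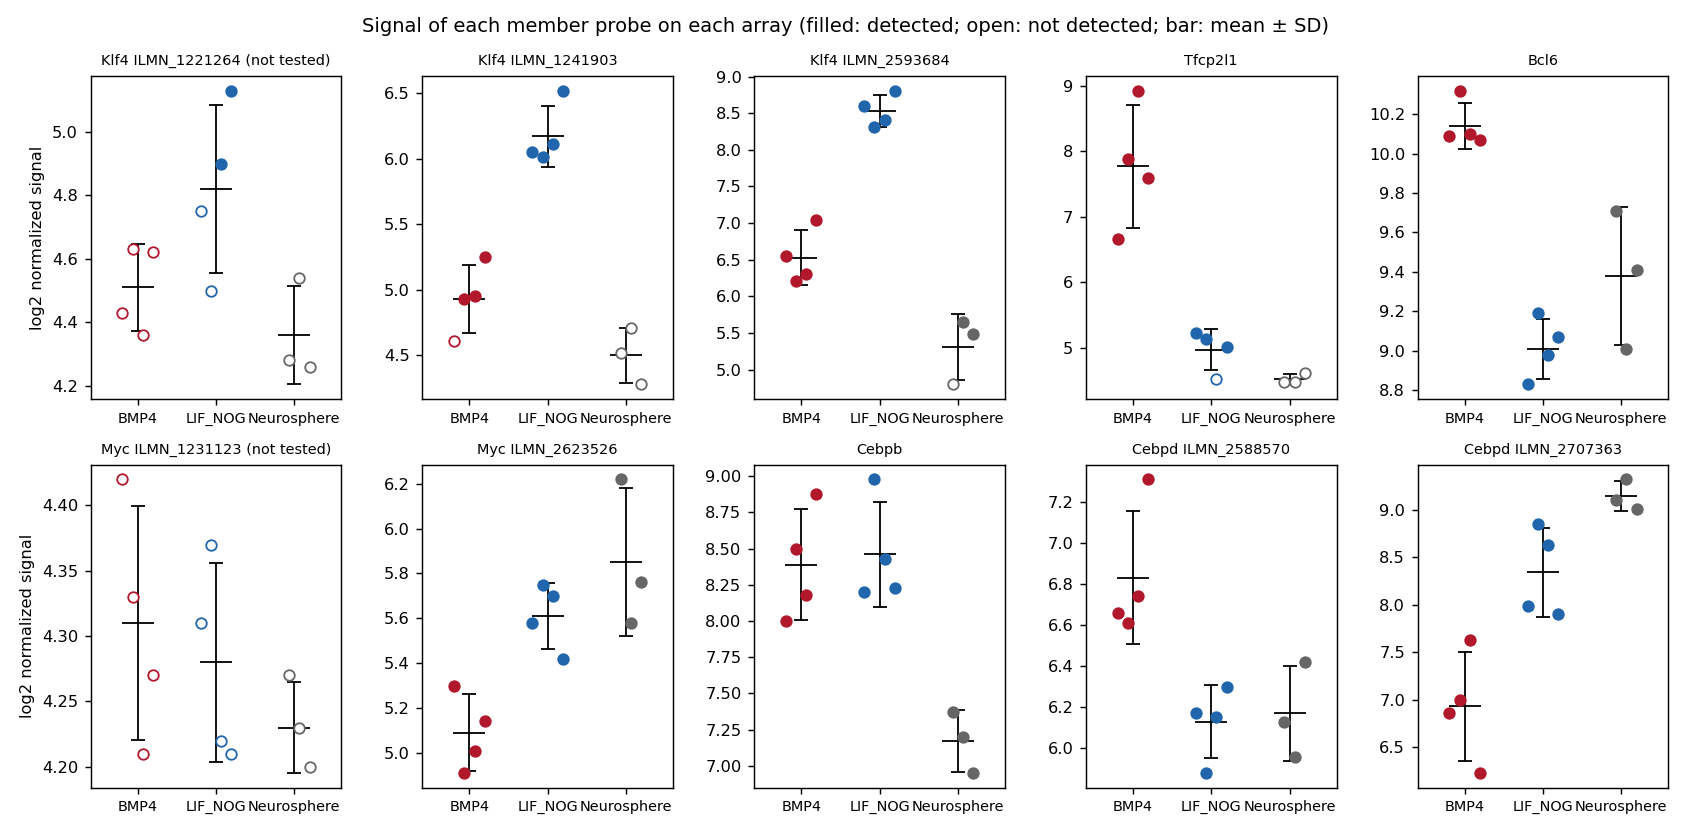
Log2 normalized signal (y axis, a separate scale per panel) of all 10 probes on the 11 arrays by group, with filled points where the probe was detected and bars for the mean and SD. In the panel of Klf4 ILMN_2593684 the LIF_NOG arrays lie between 8.31 and 8.81, above the BMP4 arrays (6.21 to 7.04) and the Neurosphere arrays (4.80 to 5.65). In the Tfcp2l1 panel the BMP4 arrays lie between 6.66 and 8.93, above all others.

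The genes closest to Klf4 over the 11 arrays, by Pearson correlation with this probe (ILMN_2593684), were Lgals3 (galectin-3, r = 0.99), Cd63 (a tetraspanin, r = 0.973) and Itih3 (a hyaluronan-binding heavy chain, r = 0.97). Lgals3 averaged 6.95 in BMP4, 8.95 in LIF_NOG and 5.28 in Neurosphere. These correlations mainly follow the 3 group means and are a description.

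Of the other Krüppel-like factor genes, 12 were tested. In LIF_NOG against Neurosphere, 2 rose (Klf6 and Klf5), 2 fell (Klf16 and Klf9) and 8 did not pass, with a median change of 0.32, where 25.1% of 11034 genes were called (12.7% higher and 12.4% lower) and the median of all genes was -0.0255. Klf6 rose by 2.06 ± 0.21 (adjusted p = 5.71e-05) and Klf5, like Klf4 a factor of the naive pluripotency network, by 1.81 ± 0.24 (adjusted p = 0.000327). Under median scaling 3 rose and 0 fell, with the row order as a block 2 rose and 1 fell, within 1 row order 2 rose and 0 fell, and without LIF_NOG 2, 4 rose and 2 fell. In BMP4 against Neurosphere, Klf6 alone rose and 3 fell (Klf13, Klf16 and Klf12), where 48.9% of genes were called (24.3% higher and 24.7% lower). In BMP4 against LIF_NOG, 1 rose (Klf9) and 5 fell (Klf13, Klf5, Klf7, Klf6 and Klf12), where 41.4% were called (19.7% higher and 21.7% lower). Klf5 fell by 1.49 ± 0.22 (adjusted p = 0.000165) and Klf13 by 2.73 ± 0.34 (adjusted p = 4.62e-05), while Klf9, which glucocorticoids and thyroid hormone can induce, rose by 1.29 ± 0.21 (adjusted p = 0.000388). The block on row order left 3 that fell in this comparison and 2 that fell in BMP4 against Neurosphere. Like Klf4, Klf5 and Klf6 thus had their highest mean in LIF_NOG, at 8.77 and 13.18.

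Of 11 other genes of the naive pluripotency network that were tested, 1 rose and 1 fell in LIF_NOG against Neurosphere, where 25.1% of all genes were called. These were Klf5 and Nr5a2, a nuclear receptor at the detection limit, at 4.74 in LIF_NOG and 5.14 in Neurosphere. None of the 11 fell with Neurosphere 1 included, with no background correction, under median scaling, on the authors' values, with the replicate block, with the row order as a block or within 1 row order. In both BMP4 comparisons Gbx2, a homeobox factor, rose, by 4.4 ± 0.25 against Neurosphere (21.1-fold, adjusted p = 5.56e-08) and by 3.83 ± 0.23 against LIF_NOG (14.3-fold, adjusted p = 1.07e-07). Klf5 was the gene that fell in BMP4 against LIF_NOG. The medians were -0.03, -0.01 and 0.11 in LIF_NOG against Neurosphere, BMP4 against Neurosphere and BMP4 against LIF_NOG.

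Tfcp2l1 encodes a CP2-family factor known in embryonic stem cells as a mediator of LIF-STAT3 self-renewal and in kidney as a regulator of the collecting duct epithelium. Its probe read 6.66, 7.88, 8.93 and 7.60 on BMP4 arrays 1 to 4. It read 5.23, 5.13, 4.52 and 5.01 on the LIF_NOG arrays (detected on 3 of 4), against 4.48, 4.48 and 4.61 on the Neurosphere arrays, where it was undetected on all 3. All BMP4 arrays were above all others, with a spread of 7.77 ± 0.933 (SD, n = 4), while LIF_NOG and Neurosphere overlapped. It was at least 7.29-fold higher in BMP4 than in Neurosphere, set against the detection limit (adjusted p = 1.73e-05), and in BMP4 against LIF_NOG it rose by 2.80 ± 0.35, 6.95-fold (adjusted p = 5.24e-05), a fold set against a LIF_NOG mean of 4.97 that lies near the detection limit. Both kept their call in every alternative run. Between LIF_NOG and Neurosphere it differed by 0.45 ± 0.38, with a 95% interval of -0.38 to 1.28 and adjusted p = 0.452. LIF with noggin thus gave no called rise of this gene, on a probe near or below the detection limit in both groups. No group had LIF without noggin.

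The CP2 and grainyhead family had 2 other tested genes. Grhl1, a grainyhead factor known from epidermis, read 8.12 ± 0.149 in BMP4, 5.76 ± 0.226 in LIF_NOG and 5.47 ± 0.349 in Neurosphere (SD, n = 4, 4 and 3). It rose by 2.66 ± 0.18 in BMP4 against Neurosphere (6.3-fold, adjusted p = 2.01e-07) and by 2.36 ± 0.17 in BMP4 against LIF_NOG (5.13-fold, adjusted p = 3.83e-07). Tfcp2, the founding member of the family, rose by 0.64 ± 0.22 in BMP4 against Neurosphere (adjusted p = 0.0295). Both rose there, but 1 of the 2 did with the row order as a block, with no detection filter and with the mean of probes. Neither passed in LIF_NOG against Neurosphere. The genes closest to Tfcp2l1 over the arrays were Rgs2 (a regulator of G-protein signalling, r = 0.982), Agpat3 (an acyltransferase of phospholipid synthesis, r = 0.981) and Cacna2d2 (a calcium channel subunit, r = 0.977). Rgs2 averaged 7.42 in BMP4, 5.38 in LIF_NOG and 4.95 in Neurosphere.

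Bcl6 encodes a BTB zinc-finger repressor, known from germinal centre B cells and, in cortical progenitors, for silencing Hes5 together with Sirt1. Its probe read 10.09, 10.32, 10.10 and 10.07 on the BMP4 arrays. It read 8.83, 9.19, 8.98 and 9.07 on the LIF_NOG arrays, against 9.71, 9.01 and 9.41 on the Neurosphere arrays and 9.70 on Neurosphere 1 with its rows moved. All BMP4 arrays were above all others, and LIF_NOG had the lowest mean, 9.01 against 9.38 in Neurosphere, with overlap. Binding of STAT3 to the 3 STAT-type matches in the first promoter window shown above was not measured. Bcl6 had its highest mean with BMP4 and was not called higher with LIF and noggin than in Neurosphere. In BMP4 against LIF_NOG it rose by 1.13 ± 0.15, 2.19-fold (adjusted p = 8.38e-05), and this kept its call in every alternative run. It also rose by 0.77 ± 0.16 in BMP4 against Neurosphere, 1.70-fold (adjusted p = 0.00184). That rise was 0.70 with adjusted p = 0.145 with the row order as a block, and 0.45 with adjusted p = 0.123 within the order that holds BMP4 1 to 4 and Neurosphere 1. In LIF_NOG against Neurosphere it differed by -0.36 ± 0.16 (adjusted p = 0.136), and it passed as lower without Neurosphere 3 (-0.55, adjusted p = 0.0428) and with Neurosphere 1 included (-0.44, adjusted p = 0.0458).

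Of 5 tested genes of the Bcl6 family, its partners and the genes it regulates, 1 rose and none fell in LIF_NOG against Neurosphere, 1 rose and 2 fell in BMP4 against Neurosphere, and 2 rose and 2 fell in BMP4 against LIF_NOG, where 25.1%, 48.9% and 41.4% of all genes were called. With 5 genes these counts do not set the list apart. Hes5, a Notch effector that keeps progenitors undifferentiated, read 8.09 ± 0.375 in BMP4, 11.22 ± 1.84 in LIF_NOG and 7.94 ± 0.386 in Neurosphere. It rose by 3.28 ± 0.72 in LIF_NOG against Neurosphere (adjusted p = 0.00685), where none of the 5 passed within 1 row order, and fell by 3.13 ± 0.67 in BMP4 against LIF_NOG (adjusted p = 0.00246). A fit with the row order as a block gave 1 that rose and none that fell in BMP4 against Neurosphere, and 2 that rose and 1 that fell in BMP4 against LIF_NOG. Nacc2, a BTB-domain corepressor, rose in both BMP4 comparisons, and Sirt1 (a deacetylase) fell in both, by 0.78 ± 0.18 against Neurosphere and by 0.65 ± 0.17 against LIF_NOG. Bcor, the corepressor named for binding Bcl6, fell by 0.70 ± 0.18 in BMP4 against Neurosphere (adjusted p = 0.00698). Ccnd2, a D-type cyclin, rose by 1.43 ± 0.37 in BMP4 against LIF_NOG (adjusted p = 0.00842). The genes closest to Bcl6 were Diras2 (a small GTPase, r = 0.963), Oma1 (a mitochondrial protease, r = 0.961) and Pparg (a nuclear receptor, r = 0.958). Diras2 averaged 12.54 in BMP4, 5.87 in LIF_NOG and 8.14 in Neurosphere.

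Myc encodes the bHLH-zip factor that with Max activates genes of ribosome biogenesis, metabolism and proliferation. Its tested probe, ILMN_2623526, was dim. It read 5.30, 4.91, 5.01 and 5.14 on the BMP4 arrays. It read 5.58, 5.75, 5.70 and 5.42 on the LIF_NOG arrays, against 6.22, 5.58 and 5.76 on the Neurosphere arrays and 6.10 on Neurosphere 1 with its rows moved. Every BMP4 array was below all others, and LIF_NOG and Neurosphere overlapped. Myc fell by 0.76 ± 0.17 in BMP4 against Neurosphere, 1.70-fold lower in BMP4 (adjusted p = 0.00202), and by 0.52 ± 0.15 in BMP4 against LIF_NOG, 1.44-fold lower (adjusted p = 0.0168). Between LIF_NOG and Neurosphere it differed by -0.24 ± 0.17 (adjusted p = 0.338). With the row order as a block the first of these was -0.51 (adjusted p = 0.28) and the second -0.33 (adjusted p = 0.402). The second also missed the threshold without BMP4 2 (-0.46, adjusted p = 0.0532) and on the authors' processed values (-0.12, adjusted p = 0.0617). The other Myc probe was undetected on all 11 arrays, at a mean of 4.31 in BMP4, 4.28 in LIF_NOG and 4.23 in Neurosphere.

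Myc has many known target genes of growth, and 26 such genes were tested. None rose and 18 fell in LIF_NOG against Neurosphere, with a median of -0.76. None rose and 22 fell in BMP4 against Neurosphere, with a median of -1.34. None rose and 17 fell in BMP4 against LIF_NOG, with a median of -0.56. These shares stand against 12.4%, 24.7% and 21.7% of all genes called lower. For LIF_NOG against Neurosphere, 7 fell within 1 row order, 12 under median scaling and 24 without LIF_NOG 2. In BMP4 against Neurosphere 13 fell with the row order as a block, and in BMP4 against LIF_NOG 3 did. Without LIF_NOG 2, 1 rose and 15 fell in BMP4 against LIF_NOG. Rcc1, a chromatin-bound exchange factor for Ran, read 6.90 ± 0.318 in BMP4, 8.27 ± 0.595 in LIF_NOG and 9.51 ± 0.105 in Neurosphere. Shmt1, a serine hydroxymethyltransferase of one-carbon metabolism, fell by 3.47 ± 0.39 in BMP4 against Neurosphere (adjusted p = 1.23e-05) and by 2.21 ± 0.39 in LIF_NOG against Neurosphere (adjusted p = 0.00212). Eif4a1, a translation initiation helicase, and Fbl, a nucleolar methyltransferase, fell by 1.76 ± 0.19 and 1.52 ± 0.18 in BMP4 against LIF_NOG.

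Cell cycle genes moved the same way as the growth genes. Of 14 tested, 11 fell in LIF_NOG against Neurosphere, 13 in BMP4 against Neurosphere and 13 in BMP4 against LIF_NOG, with medians of -1.70, -4.45 and -2.94, and none rose. Of all genes, 12.4%, 24.7% and 21.7% were called lower in these comparisons, and 12.7%, 24.3% and 19.7% higher. Within 1 row order, 7 of the 14 fell in LIF_NOG against Neurosphere. The part of the cell cycle genes in the Myc and growth gene values was not tested. Of 6 tested genes of the Myc-Max network, Mxd3, a Max partner expressed in dividing cells, fell in all 3 comparisons, by 1.19 ± 0.23 in LIF_NOG against Neurosphere, and it was undetected on all 4 BMP4 arrays, at least 3.33-fold lower than in Neurosphere. Mxd1, a Max partner that opposes Myc, rose by 1.21 ± 0.34 in BMP4 against Neurosphere (adjusted p = 0.0117), a call that was lost with the row order as a block. Mycl fell by 1.86 ± 0.50 in BMP4 against LIF_NOG (adjusted p = 0.0108), where the block left 1 of the 2 lower calls, and the probe for Mycn was undetected on every array. Without LIF_NOG 2, 3 of the network genes rose and 1 fell in LIF_NOG against Neurosphere. The genes closest to Myc were Slc4a1ap (r = 0.945), Dnajc2 (a ribosome-associated chaperone, r = 0.944) and Timm44 (mitochondrial protein import, r = 0.942), which had their highest means, like Myc, in Neurosphere.

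Cebpb encodes C/EBPβ, a bZIP factor of the acute phase response and of adipocyte and macrophage differentiation. Its probe read 8.00, 8.50, 8.18 and 8.88 on the BMP4 arrays. It read 8.20, 8.98, 8.43 and 8.23 on the LIF_NOG arrays, against 7.37, 7.20 and 6.95 on the Neurosphere arrays and 7.18 on Neurosphere 1 with its rows moved. Every treated array was above every Neurosphere array, and the 2 treated groups overlapped. Cebpb rose by 1.29 ± 0.23 in LIF_NOG against Neurosphere, 2.44-fold (adjusted p = 0.00232), and by 1.22 ± 0.23 in BMP4 against Neurosphere, 2.32-fold (adjusted p = 0.000792). Both kept their call in every alternative run. BMP4 against LIF_NOG gave -0.07 ± 0.21, with a 95% interval of -0.53 to 0.39 and adjusted p = 0.843, so a difference between the cytokines of up to that size cannot be told from 0 here. The genes closest to Cebpb were Il33 (an alarmin cytokine, r = 0.957), Ifitm1 (an interferon-induced membrane protein, r = 0.954) and Gcnt2 (a glycan-branching enzyme, r = 0.952). Ifitm1 averaged 11.67 in BMP4, 11.53 in LIF_NOG and 9.58 in Neurosphere.

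Cebpd encodes C/EBPδ, a bZIP factor that inflammatory cytokines induce. Its probe with the higher mean, ILMN_2707363, read 6.86, 7.00, 7.63 and 6.23 on the BMP4 arrays. It read 7.99, 8.85, 8.63 and 7.90 on the LIF_NOG arrays, against 9.10, 9.32 and 9.01 on the Neurosphere arrays. The groups did not overlap, with BMP4 lowest and Neurosphere highest. This probe fell by 2.21 ± 0.30 in BMP4 against Neurosphere, 4.63-fold lower in BMP4 (adjusted p = 5.5e-05), and by 1.41 ± 0.28 in BMP4 against LIF_NOG (adjusted p = 0.00142). In LIF_NOG against Neurosphere it differed by -0.80 ± 0.30 (adjusted p = 0.0752), and it passed as lower without LIF_NOG 2 (-0.97, adjusted p = 0.0229), without BMP4 3 (-0.80, adjusted p = 0.045) and without BMP4 4 (-0.80, adjusted p = 0.0391).

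The other Cebpd probe, ILMN_2588570, ran the other way. It read 6.66, 6.61, 6.74 and 7.31 on the BMP4 arrays. It read 6.17, 5.88, 6.15 and 6.30 on the LIF_NOG arrays, against 6.13, 5.96 and 6.42 on the Neurosphere arrays. All BMP4 arrays were above all others on this probe. It rose by 0.66 ± 0.19 in BMP4 against Neurosphere (adjusted p = 0.0109) and by 0.70 ± 0.17 in BMP4 against LIF_NOG (adjusted p = 0.00598), and in LIF_NOG against Neurosphere it differed by -0.05 ± 0.19 (adjusted p = 0.895). No direction is therefore given for Cebpd as a gene. Of 3484 genes with more than 1 tested probe, 76 (2.18%) had probes called in opposite directions in BMP4 against Neurosphere, 30 (0.861%) in BMP4 against LIF_NOG and 12 (0.344%) in LIF_NOG against Neurosphere. Without Neurosphere 3 the rise of ILMN_2588570 in BMP4 against Neurosphere was 0.55 (adjusted p = 0.0579), and with the row order as a block it was 0.42 (adjusted p = 0.453). In BMP4 against LIF_NOG the block left 0.53 for it (adjusted p = 0.22) and -0.97 for ILMN_2707363 (adjusted p = 0.137). Which probe follows the Cebpd transcript was not tested, and the files used here hold no probe sequences.

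**Figure D3:**
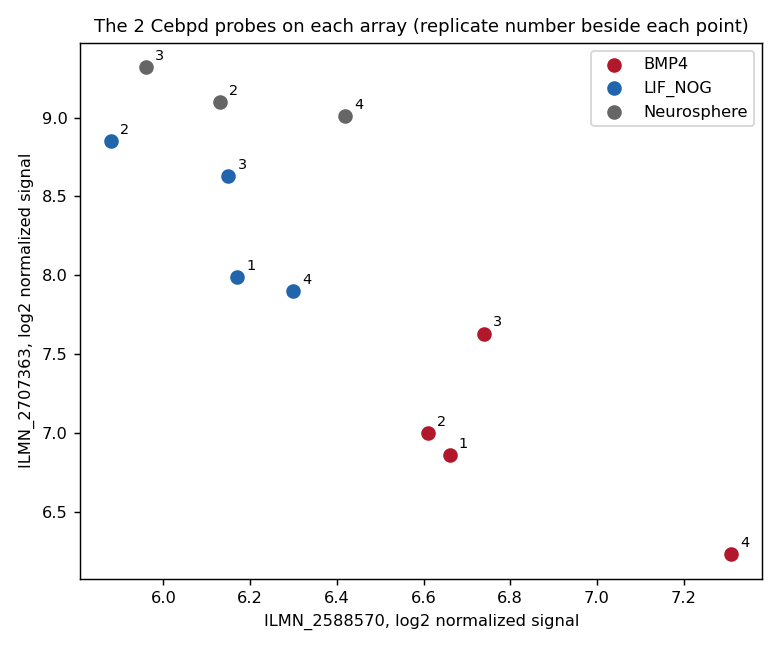
Log2 normalized signal of the 2 Cebpd probes against each other on the 11 arrays, ILMN_2588570 on the x axis and ILMN_2707363 on the y axis, with replicate numbers beside the points. The BMP4 arrays lie at the lower right, from 6.61 to 7.31 on x and from 6.23 to 7.63 on y, apart from both other groups.

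The genes closest to Cebpd by probe ILMN_2707363 were Eif3d (a translation initiation subunit, r = 0.986), Sae1 (a subunit of the SUMO-activating enzyme, r = 0.985) and Sfxn1 (a mitochondrial serine transporter, r = 0.984). Eif3d averaged 10.94 in BMP4, 11.71 in LIF_NOG and 12.25 in Neurosphere. Of the 3 other C/EBP family genes tested, none rose in any comparison. Of all genes, 12.7% rose and 12.4% fell in LIF_NOG against Neurosphere, and 24.3% and 24.7% in BMP4 against Neurosphere. In BMP4 against LIF_NOG 19.7% rose and 21.7% fell. With 3 genes these counts do not set the family apart. Cebpa, a differentiation factor of liver, fat and myeloid cells, read 5.18 ± 0.292 in BMP4, 6.39 ± 0.721 in LIF_NOG and 6.55 ± 0.0512 in Neurosphere, and it fell in both BMP4 comparisons (adjusted p = 0.00263 and 0.00491). Cebpg, a partner of other C/EBP factors, fell by 0.69 ± 0.17 in BMP4 against Neurosphere and by 0.79 ± 0.17 in LIF_NOG against Neurosphere. With the row order as a block, 0 of 3 fell in either BMP4 comparison, and within 1 row order 0 of 3 fell in LIF_NOG against Neurosphere.

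Of 10 tested acute phase genes that C/EBP factors are known to regulate, 5 rose and none fell in LIF_NOG against Neurosphere (median 0.77), and 7 rose and none fell in BMP4 against Neurosphere (median 1.60), where 12.7% and 24.3% of all genes rose. Serpina3n, a secreted protease inhibitor of reactive astrocytes that is also listed as a STAT3 target, was undetected in Neurosphere and at least 135.0-fold higher in BMP4 and at least 77.7-fold higher in LIF_NOG. Hmox1 (heme oxygenase) rose by 3.48 ± 0.22 in BMP4 against Neurosphere and by 2.66 ± 0.20 in BMP4 against LIF_NOG. Cp (ceruloplasmin, which oxidizes iron) read 6.29 ± 0.528 in BMP4, 7.90 ± 0.935 in LIF_NOG and 5.05 ± 0.179 in Neurosphere, and it fell by 1.61 ± 0.39 in BMP4 against LIF_NOG (adjusted p = 0.0054), a call that was lost with the row order as a block. In that comparison 3 rose and 1 fell, and 5 rose without LIF_NOG 2. With the row order as a block, 4 rose in BMP4 against Neurosphere, and within 1 row order 3 rose in LIF_NOG against Neurosphere.

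Stat3, Id1 and Gfap each had 2 tested probes, and the values here are for the probe with the higher mean. Of the 2 tested STAT genes, Stat3 and Stat2, both rose in BMP4 against Neurosphere, and 1 did with the row order as a block. Stat3 itself read 11.30 ± 0.0691 in BMP4, 12.12 ± 0.228 in LIF_NOG and 10.14 ± 0.265 in Neurosphere. It rose by 1.98 ± 0.16 in LIF_NOG against Neurosphere (adjusted p = 1.13e-05), rose by 1.16 ± 0.16 in BMP4 against Neurosphere (adjusted p = 5.47e-05) and fell by 0.81 ± 0.15 in BMP4 against LIF_NOG (adjusted p = 0.000737). This order, LIF_NOG above BMP4 above Neurosphere, is that of Klf4 probe ILMN_2593684. For that probe the step from Neurosphere to BMP4 lost its call with the row order as a block. The other tested Klf4 probe was not called in that step. Socs3 had another order, 11.94 ± 0.422 in BMP4, 10.50 ± 0.754 in LIF_NOG and 6.27 ± 0.389 in Neurosphere. It rose by 1.44 ± 0.33 in BMP4 against LIF_NOG (adjusted p = 0.00417), a call that was lost with the row order as a block and within 1 row order. Like Socs3, Bcl6 and Tfcp2l1 had their highest mean in BMP4. Id1, a direct target of BMP and SMAD signalling, read 11.17 ± 0.159 in BMP4, 7.14 ± 0.417 in LIF_NOG and 7.99 ± 0.281 in Neurosphere, and rose by 4.03 ± 0.20 in BMP4 against LIF_NOG. Gfap, whose promoter drove the sorting reporter, read 13.86 ± 0.671 in BMP4, 10.97 ± 1.57 in LIF_NOG and 4.86 ± 0.369 in Neurosphere.

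Of 11 tested genes for gp130 ligands, receptors and kinases, 3 rose and none fell in LIF_NOG against Neurosphere, 5 rose and none fell in BMP4 against Neurosphere, and 3 rose and 3 fell in BMP4 against LIF_NOG. Of all genes, 12.7%, 24.3% and 19.7% rose in these comparisons, and 21.7% fell in the last. Osmr, the oncostatin M receptor subunit, read 6.80 ± 1.07 in BMP4 and 8.08 ± 0.266 in LIF_NOG and was undetected in Neurosphere, so that it was at least 3.72-fold higher in BMP4 and at least 9.04-fold higher in LIF_NOG. Il6ra, the IL-6 receptor subunit, was undetected in BMP4 and in Neurosphere and was at least 2.6-fold higher in LIF_NOG than in Neurosphere (adjusted p = 0.0151). Jak2, a kinase on these receptors, rose by 1.14 ± 0.16 in LIF_NOG against Neurosphere and fell by 1.14 ± 0.15 in BMP4 against LIF_NOG. Ctf1, the gp130 ligand cardiotrophin-1, read 6.64 in BMP4 and 4.73 in LIF_NOG, where it was detected on 1 of 4 arrays, and it was called higher in BMP4 (adjusted p = 3.69e-06). Lifr, the LIF receptor subunit, was at the detection limit, at 5.00 in BMP4, 4.70 in LIF_NOG and 4.79 in Neurosphere, and both probes for Il6st (gp130) were detected on no more than 2 arrays and were not tested. Of the 11 tested, 2 rose in BMP4 against Neurosphere with the row order as a block, and 1 rose and 1 fell in BMP4 against LIF_NOG.

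The 15 tested inhibitors of JAK-STAT signalling were Socs, Cish, Ptpn and Pias genes, so not all are feedback genes like Socs3. Of these, 3 rose (Socs3, Socs2 and Cish) and 1 fell (Ptpn2, a phosphatase) in LIF_NOG against Neurosphere. In BMP4 against Neurosphere 3 rose and 5 fell, and in BMP4 against LIF_NOG 3 rose and 2 fell. The shares of all genes that rose were 12.7%, 24.3% and 19.7%, so the counts of higher genes over this mixed list lie near them. The 3 that rose in LIF_NOG against Neurosphere were all Socs or Cish genes, while Socs1, Socs4, Socs5 and Socs6 did not pass there. In both BMP4 comparisons Socs1 rose and Socs4 fell. With the row order as a block, 1 rose and 2 fell in BMP4 against Neurosphere, and none, Socs3 included, rose in BMP4 against LIF_NOG. Within 1 row order, 1 rose in LIF_NOG against Neurosphere. Of 19 other STAT3 target genes tested, 12 rose and none fell in LIF_NOG against Neurosphere (median 1.01), and 13 rose and 1 fell in BMP4 against Neurosphere (median 1.94). In BMP4 against LIF_NOG 6 rose and 3 fell (median 0.07), and 4 rose and 3 fell with the row order as a block. Without LIF_NOG 2, 12 rose and 2 fell in LIF_NOG against Neurosphere. Fos, an immediate-early factor, read 13.80 ± 0.124 in BMP4, 13.99 ± 0.509 in LIF_NOG and 8.51 ± 0.221 in Neurosphere, and BMP4 against LIF_NOG did not pass (-0.18 ± 0.21, adjusted p = 0.556). Of the 6 genes described above, Cebpb had this pattern, higher with either cytokine and not called between them. Astrocyte markers rose over the same comparisons, 7 of 14 in LIF_NOG against Neurosphere, 12 of 14 in BMP4 against Neurosphere and 10 of 14 in BMP4 against LIF_NOG. Of 11 oligodendrocyte lineage markers, 6 rose and 2 fell in LIF_NOG against Neurosphere, 5 fell in BMP4 against Neurosphere and 9 fell in BMP4 against LIF_NOG. The summed signal of these was 28200 to 30300 in BMP4, 32200 to 39700 in LIF_NOG and 26400 to 31700 in Neurosphere. Of all genes, 12.7% were called higher and 12.4% lower in LIF_NOG against Neurosphere. These shares were 24.3% and 24.7% in BMP4 against Neurosphere, and 19.7% and 21.7% in BMP4 against LIF_NOG. In LIF_NOG against Neurosphere, all 4 ependymal and ciliary markers tested and 3 of 10 neuron markers also rose. In BMP4 against Neurosphere, 2 of these 4 and 2 of these 10 rose, and 1 of the 10 fell. The summed signals of these lists were 355 to 1290 and 999 to 2100 in LIF_NOG, and 378 to 419 and 775 to 1320 in BMP4. In Neurosphere they were 189 to 223 and 697 to 884. Of 4 mural and fibroblast markers, Acta2 fell in all 3 comparisons and Rgs5 rose in both BMP4 comparisons. These 4 summed to 1080 to 1250 in BMP4, 1260 to 5500 in LIF_NOG and 6400 to 9030 in Neurosphere. The sum of 9 neural stem and progenitor markers was 19900 to 25800, 29100 to 33500 and 17600 to 18600 in these groups. The part of cell composition in the values of the 6 genes was not tested.

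**Figure D4:**
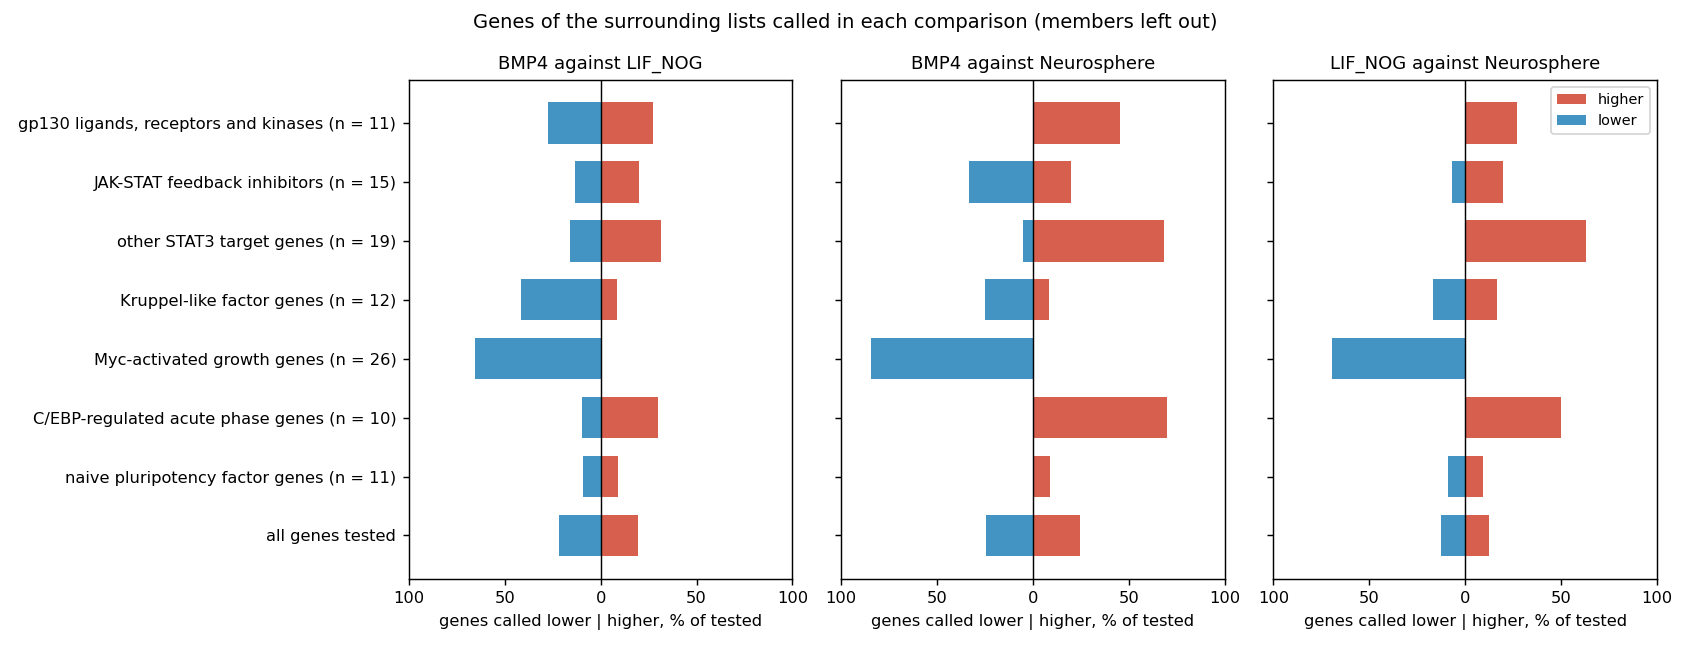
Percent of the tested genes of 7 lists, and of all tested genes, called lower (left of 0) and higher (right of 0) in each comparison, with the number tested beside each list and the 6 genes left out. Other STAT3 targets (12 and 13 of 19) and acute phase genes (5 and 7 of 10) are called mainly higher in LIF_NOG against Neurosphere and in BMP4 against Neurosphere, and none of 26 Myc-activated growth genes is called higher in any of the 3 comparisons.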

How the data were processed

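For each of 12 arrays the deposited raw table has 1 intensity per probe, not normalized, and 1 detection p-value, per the file headers. BeadStudio 3 and lumi 2.15.1 are listed in the submitters' processing notes, with no role stated. A second table holds the authors' processed intensity values, on a linear scale by their values, and was used for 1 alternative. The raw column of Neurosphere 1 is in another row order (median rank correlation with the other columns 0.0104), so it was left out. For alternatives its rows were moved through the 46623 of 46630 rows of the authors' table that could be matched. Each row took the raw signal and detection p-value at the rank of its authors' value. After this the array correlated at 0.916 to 0.928 with its group. No per-sample column was left unused (0 columns). 

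Probe names come from GEO's platform annotation (29967 probes with 1 symbol, 10 with several and 16644 with none), compared through Entrez IDs with a GRCm38.p6 gene table, which changed 0 symbols. Signals of 11 arrays were background-corrected by normexp, with the negative controls' mean and SD read from detection p-values, given an offset of 16, quantile normalized and set on a log2 scale (limma 3.58.1, function neqc; R 4.3.3). Probes detected (p under 0.05) on at least 3 arrays were kept. Group means were fitted with lmFit and contrasts tested with eBayes (8 residual and 4.54 prior degrees of freedom), two-sided, with p-values adjusted by Benjamini-Hochberg over all 20965 probes, and called under 0.05. The fit was tested on simulated data. A gene outside the 6 is represented by its kept probe with the highest mean. Where a probe was undetected on every array of the dimmer group, the fold is a lower bound against each array's detection limit (log2 4.80 to 4.92). Single values were checked by exact two-sided permutation tests with scipy 1.17.1 in Python 3.11.15. The 6 genes, the gene lists and the rule for named genes were chosen with earlier results of these data known. The rule names all probes of the 6 genes, up to 3 called genes per list and comparison by size of change, the 3 genes of highest correlation with each of the 6, and Stat3, Il6st, Lifr, Osmr, Socs3, Gfap, Id1 and Mycn. Other genes were named after their values were seen. Alternatives changed the background correction, normalization, filter, probe summary, array weights, blocks and arrays used. Those that place Neurosphere 1 in the row-order fits, and the counts of the gene lists under each alternative, were chosen after seeing the data. Precision is limited by the number of arrays.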

Additional observations from a re-analysis of the deposited data

Results flagged for a closer look

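Bcl6 on the BMP4 arrays had 1 array far from the others. BMP4 2 read 10.32 against 10.07 to 10.10 on the other 3, and its gap to the nearest was 0.874 of the group's range, above Dixon's 95% critical value for 4 arrays. Chance flags about 1 in 20 groups, and 16 groups were looked at. Without BMP4 2, Bcl6 kept its call in both BMP4 comparisons.

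Klf4 probe ILMN_1221264, which was not tested, was detected on 2 arrays, LIF_NOG 3 at 4.90 and LIF_NOG 4 at 5.13. It was undetected on all 4 BMP4 arrays and all 3 Neurosphere arrays, at 4.36 to 4.63 and 4.26 to 4.54.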

How the results depend on the processing

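Of 24 member results (8 probes in 3 comparisons), 17 were called, 10 of these kept their call and direction in every alternative run out of 26, 7 lost the call in at least 1 and 3 uncalled results gained one. The losses and gains with the row order as a block and without single arrays stand beside each gene above. Bcl6 in BMP4 against Neurosphere was 0.54 with Neurosphere 1 and the row order as a block (adjusted p = 0.0504). The lower Cebpd call of ILMN_2707363 in LIF_NOG against Neurosphere appeared with array weights and with the fit of the 2 groups alone. A lower Cebpd call also appeared there for the mean of both probes, which is not a value of ILMN_2707363. For Klf4 and Cebpd, the mean of the 2 tested probes is counted above under the probe with the higher mean. The lower Bcl6 call there appeared with Neurosphere 1 and the block. Within 1 row order, the calls of Myc and both Cebpd probes in BMP4 against LIF_NOG were lost, as with the block. Uncalled changes turned sign for Cebpd ILMN_2588570 in LIF_NOG against Neurosphere (0.07 with Neurosphere 1, with or without the block, 0.13 with median scaling, 0.05 with array weights, -0.15 to 0.13 over all alternatives, 0.03 without LIF_NOG 2 and 0.08 without Neurosphere 4), for Klf4 ILMN_1241903 in BMP4 against Neurosphere (-0.03 with the row order as a block) and for Cebpb in BMP4 against LIF_NOG (0.16 with the block and within 1 row order, 0.05 with Neurosphere 1 and the block, 0.10 without LIF_NOG 2, 0.06 without BMP4 1 and 0.00 without BMP4 3, with -0.23 without BMP4 4 at the other end). The causes were not tested.

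Counts of called probes, 2207 higher and 2475 lower in LIF_NOG against Neurosphere, 4410 and 5003 in BMP4 against Neurosphere and 3630 and 4093 in BMP4 against LIF_NOG, moved by over 1.5 times as follows. With fewer features, 1 probe per gene gave 1445 and 1410, 2691 and 2749, and 2198 and 2421 in these comparisons, and the mean of probes 1408 and 1464, 2670 and 2778, and 2191 and 2387. Array weights gave 3322 higher and median scaling 1276 lower (with 64.9% of calls higher) in LIF_NOG against Neurosphere. The row order as a block gave 2070 and 2122 in BMP4 against Neurosphere and 1997 and 2085 in BMP4 against LIF_NOG. Within 1 row order, with fewer arrays, the counts were 1307 and 1120 in LIF_NOG against Neurosphere and 1802 and 2116 in BMP4 against LIF_NOG, with LIF_NOG 4 assumed to vary like the others. With Neurosphere 1 moved into that order they were 1793 and 2119 there, and 2932 higher in BMP4 against Neurosphere. Leaving out 1 array gave 1360 to 3098 higher and 1309 to 3237 lower, 3864 to 4727 and 4276 to 5374, and 3185 to 3776 and 3475 to 4482, with the lowest of the first comparison without Neurosphere 3. The replicate block gave 2133 and 2255, 4364 and 4892, and 3720 and 4249. Deviations of same-numbered arrays correlated at -0.052 to 0.218, so the numbers were not taken to pair the samples. With that replicate block Cebpd ILMN_2707363 in LIF_NOG against Neurosphere was -0.73 (adjusted p = 0.0375) and Klf4 ILMN_1241903 in BMP4 against Neurosphere 0.51 (adjusted p = 0.0388), both past the threshold.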
